A study of Homo sapiens with 18 samples.

Results

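The aminoacyl-tRNA synthetases are the enzymes that attach amino acids to transfer RNAs. The 35 genes described here are 19 enzymes or subunits of the cytosol and 16 enzymes of mitochondria, taken by name from the 59251 genes of the deposited tables. Membership rests on gene names alone and uses no measured value as a criterion, and the list does not hold every synthetase of either compartment. Mitochondrial members are those whose symbol ends in 2. GARS1 and KARS1 are counted as cytosolic but serve both compartments from 1 gene each. All 35 members were found in the tables and all 35 passed the filter on low counts, with 565 to 55733 counts per library.

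RNA was sequenced from HAP1, a human leukaemia-derived cell line with a nearly haploid genome, in 18 libraries forming 6 groups of 3. Of these, 12 came from a line labelled as deleted for SARS2 and carrying SARS2-1xFLAG, a tagged copy of that gene. They were labelled as with doxycycline at 15 ng/mL or as without doxycycline for 3, 6 and 9 days. The labels do not say how the tagged copy responds to doxycycline. The other 6 came from the unmodified parental line without doxycycline (with no day given) and with it. SARS2 encodes the mitochondrial seryl-tRNA synthetase, and no label states that it was depleted in any group. The labels do not give the kind of deletion, whether the line is a single clone, or whether replicates were separate cultures, so the tests set differences against the spread of the 3 libraries of a group, part or all of which may be technical. Libraries held 66850705 to 111123481 counts. Of the 9 haematopoietic markers checked for this line, 6 (PTPRC, SPI1, GATA1, ITGAM, CD53 and LAPTM5) were below the filter on low counts, as were CDH1, KRT19, COL1A2 and COL3A1 of the epithelial and mesenchymal lists. Some of the markers that passed it moved with the labels, though on day 3 none of the epithelial or mesenchymal markers was called. The summed CPM of the haematopoietic list, nearly all of it from KIT, ran over 15.3 to 17.6 with doxycycline, 12.48 to 13.3 on day 3, 18.7 to 22.7 on day 6 and 8.29 to 9.24 on day 9, and over 24.1 to 28.0 without and 13.8 to 15.4 with doxycycline in parental cells. The epithelial sum, nearly all of it from KRT18, was 33.1 to 37.8 CPM with doxycycline and 55.6 to 63.3 on day 9. The mesenchymal sum, mostly from VIM, was 699 to 776 and 862 to 1140 CPM. The median log2 fold change on day 9 was -0.29 over the epithelial markers tested and 0.31 over the mesenchymal ones. On day 9, 2 haematopoietic markers (CD34 and CD33, each at most 0.435 CPM in a library) were called higher and 1 lower. For epithelial markers 1 was higher and 2 lower, and for mesenchymal markers 4 were higher and 1 lower. Of all genes tested, 22.6% were called higher and 23.8% lower on that day. The part of the marker changes in the results was not tested.

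Some libraries stood apart from their replicates. The chi-square per gene between the counts of 2 replicates was 4.97 to 32.6, apart from 4 pairs. It was 69.6 and 86.6 for parental no-doxycycline replicate 3 against replicates 1 and 2, and 48.9 and 95 for day 9 replicate 3 against replicates 1 and 2. Calls of single members described below that were lost without these libraries are given with that value. Genes of the other lists were not checked in this way.

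Each synthetase pairs its amino acid with the matching transfer RNAs, and this charging step feeds the ribosome. The cytosolic enzymes serve the translation of nuclear-encoded messages. The mitochondrial enzymes are also encoded in the nucleus but are imported to charge the transfer RNAs made from mitochondrial DNA, which serve the few respiratory-chain proteins translated inside the organelle. Several cytosolic enzymes sit together in the multisynthetase complex, held by the scaffold proteins AIMP1, AIMP2 and EEF1E1. Many cytosolic synthetase genes are known targets of ATF4, the transcription factor of the integrated stress response, which is set off by amino acid shortage and by mitochondrial dysfunction.

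Counts of SARS2 (chromosome 19, 38915266 to 38930763, minus strand, GRCh38) did not fall in the deleted-line groups labelled as without doxycycline. In the deleted line SARS2 had 23.5, 25.2 and 23.9 CPM with doxycycline, 30.5, 31.9 and 32.4 on day 3, 23.2, 25.8 and 25.0 on day 6 and 43.3, 34.0 and 48.1 on day 9, where CPM are counts scaled to a common library size after TMM normalisation. The parental libraries had 36.6, 40.4 and 42.6 CPM without doxycycline, against 43.5, 46.2 and 43.2 with it. The day 6 libraries overlapped the doxycycline libraries, and all day 3 and day 9 libraries lay above them. In the edgeR quasi-likelihood test, the log2 fold change (± standard error, SE, here and below) against doxycycline was 0.38 ± 0.10, adjusted p = 0.014 on day 3, 0.03 ± 0.10, adjusted p = 0.86 on day 6 and 0.79 ± 0.10, adjusted p = 2.7e-06 on day 9. The day 3 call did not hold without deleted-line doxycycline replicate 1 (0.36) or day 3 replicate 2 (0.38) or 3 (0.37). With doxycycline in both lines, the deleted cells had less SARS2 than the parental cells (-0.87 ± 0.10, adjusted p = 3.5e-06). Groups are therefore given below as libraries labelled with each day. Reads of the tagged copy and of the deleted locus cannot be told apart in these counts.

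Promoter sequences were looked up because several of the genes that moved most are known ATF4 targets, and ATF4 dimers bind a composite element of the form TGATGNAA, the C/EBP-ATF response element (CARE). RefSeq promoters (GRCh38.p14, 250 bases before to 50 after the gene start) matched 30 of the 35 members. The element was searched on both strands and was present in 7 of 16 cytosolic promoters (AARS1, CARS1, GARS1, IARS1, MARS1, NARS1 and TARS1), in 1 of 14 mitochondrial promoters (YARS2) and in 3.67% of all 27305 promoters of that length. Stretches of 4 of these promoters follow, those with the largest day 6 change among members whose match begins before the gene start, written 5′ to 3′ on the gene's strand with the match in capitals. They are chr16:70289660-70289719 (minus strand), chr11:3057418-3057451 (minus), chr7:30594819-30594877 (plus) and chr12:57488038-57488071 (plus). Gene starts here are those of the RefSeq promoters. In the positions used for counting, GARS1 starts upstream of its stretch, at 30594735, so that stretch lies inside the gene as counted.

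AARS1: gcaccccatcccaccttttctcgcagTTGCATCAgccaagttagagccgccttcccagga
CARS1: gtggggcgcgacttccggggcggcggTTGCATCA
GARS1: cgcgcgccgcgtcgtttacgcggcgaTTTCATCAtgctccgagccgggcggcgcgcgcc
MARS1: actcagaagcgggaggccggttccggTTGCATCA

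In all 4 the match reads on the opposite strand, as TTGCATCA in AARS1, CARS1 and MARS1 and as TTTCATCA in GARS1. In CARS1 and MARS1 the match spans the gene start itself. A match describes letters in this window and is not evidence of binding. The E-box CACGTG was present in IARS1, CARS2, EARS2 and MARS2 (7.43% of all promoters) and the NRF1 element GCGCATGC in MARS2 and YARS2 (3.27%). The ETS element CCGGAAGT was present in CARS1, HARS1, NARS1, TARS1, WARS1, EARS2, HARS2 and PARS2 (4.44%). HARS1 and HARS2 lie head to head, so that their windows overlap and hold the same ETS matches on opposite strands.

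The cytosolic enzymes were the more abundant class. Levels between genes were compared per length, as RPKM (CPM per kilobase of exonic sequence). In the deleted line with doxycycline, the RPKM of cytosolic members ran from 20.5 ± 1.38 for FARSB, the beta subunit of the phenylalanyl enzyme, to 130.2 ± 5.52 for YARS1, the tyrosyl enzyme (SD, n = 3 here and below). GARS1, the glycyl enzyme of both compartments, was at 118 ± 5.96 RPKM and KARS1, the lysyl enzyme of both, at 100.1 ± 6.34, next below YARS1 in the order. Mitochondrial members ran from 0.603 ± 0.0295 RPKM for FARS2 to 47.3 ± 0.521 for IARS2, the isoleucyl enzyme. FARS2 is annotated with 31403 exonic bases over a span of 521650 bases, so its RPKM depends on that annotation.

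For 17 pairs of a cytosolic and a mitochondrial member that use the same amino acid, the cytosolic partner was higher per length in every library of every group. The difference was smallest for IARS1 over IARS2, with a log2 RPKM ratio of 0.66 ± 0.04 in the deleted line with doxycycline, and widest for FARSA over FARS2 (7.18 ± 0.15). The seryl pair, SARS1 over SARS2, had a log2 RPKM ratio of 2.35 ± 0.13 with doxycycline, 1.90 ± 0.06 on day 3, 2.82 ± 0.04 on day 6 and 1.48 ± 0.13 on day 9. In parental cells the same ratio was 2.14 ± 0.14 without doxycycline and 1.75 ± 0.08 with it. The alanyl pair, AARS1 over AARS2, had its widest ratios on day 6 (4.27 ± 0.29) and in parental cells without doxycycline (4.41 ± 0.12), against 3.16 ± 0.11 and 3.22 ± 0.05 with doxycycline in the deleted and the parental line.

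**Figure D1:**
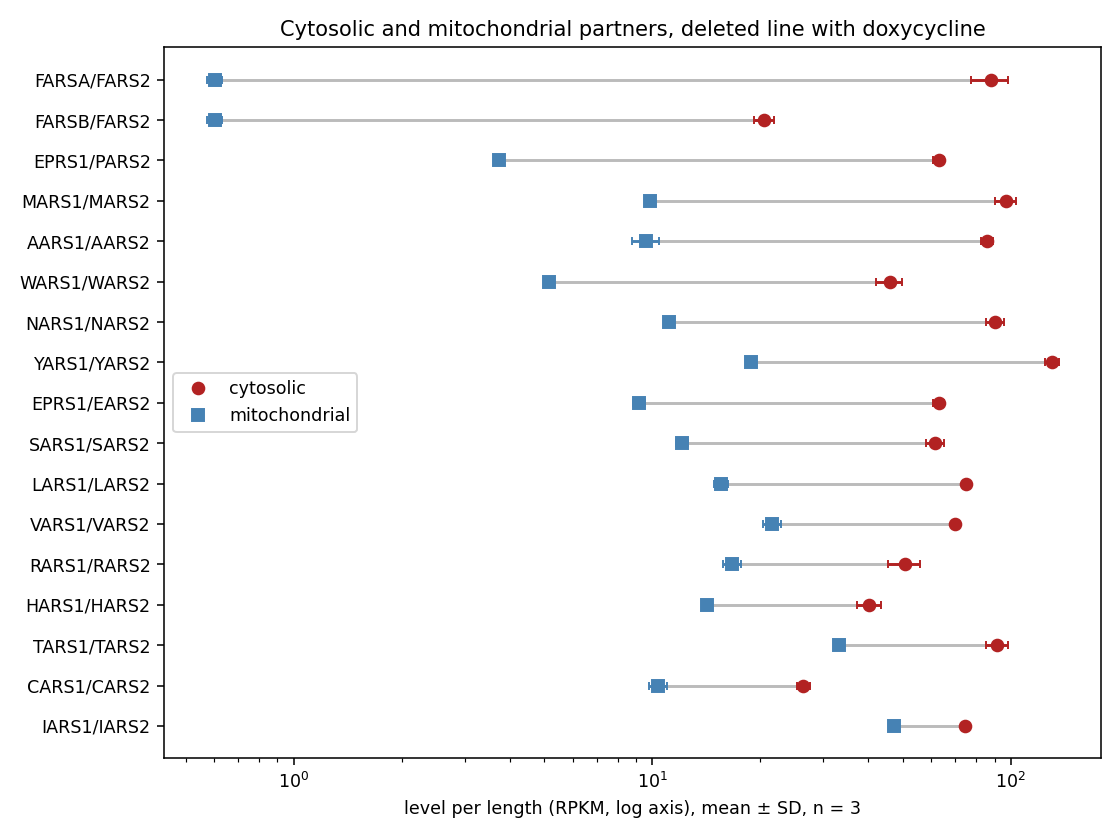
Level per length (RPKM, log axis; mean ± SD, n = 3) of the cytosolic (circles) and mitochondrial (squares) partner of 17 pairs in the deleted line with doxycycline, ordered by their ratio. The cytosolic partner is to the right in all 17 pairs, and FARS2 is the lowest gene.

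The balance between the classes moved with the label. The summed CPM of the 19 cytosolic members divided by that of the 16 mitochondrial members was 4.92, 4.90 and 5.11 in the deleted-line libraries with doxycycline, 5.20, 5.24 and 5.12 on day 3, 6.53, 6.61 and 6.47 on day 6 and 5.78, 5.71 and 5.77 on day 9. In parental cells it was 6.88, 6.30 and 6.97 without doxycycline, against 5.33, 5.30 and 5.34 with it. The day 6 libraries of the deleted line and the parental libraries without doxycycline held the highest ratios. Neither these groups nor day 3 and day 9 overlapped their doxycycline libraries, though day 3 lay barely above (from 5.115, against up to 5.113). On day 6 the cytosolic sum was 5421 ± 41.0 CPM, against 4534 ± 182 with doxycycline, while the mitochondrial sum was 829 ± 7.05, against 911 ± 15.9. In parental cells the cytosolic sum was 5949 ± 367 CPM without doxycycline and 5449 ± 78.0 with it, and the mitochondrial sum 886 ± 26.8 and 1023 ± 10.6. On day 9 both sums were above doxycycline on average, at 5509 ± 375 and 958 ± 60.9 CPM, with the mitochondrial libraries at 943, 905 and 1024 CPM, against 913, 894 and 926 with doxycycline. In bulk RNA, a change in cell composition and a change in RNA per cell cannot be told apart.

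**Figure D2:**
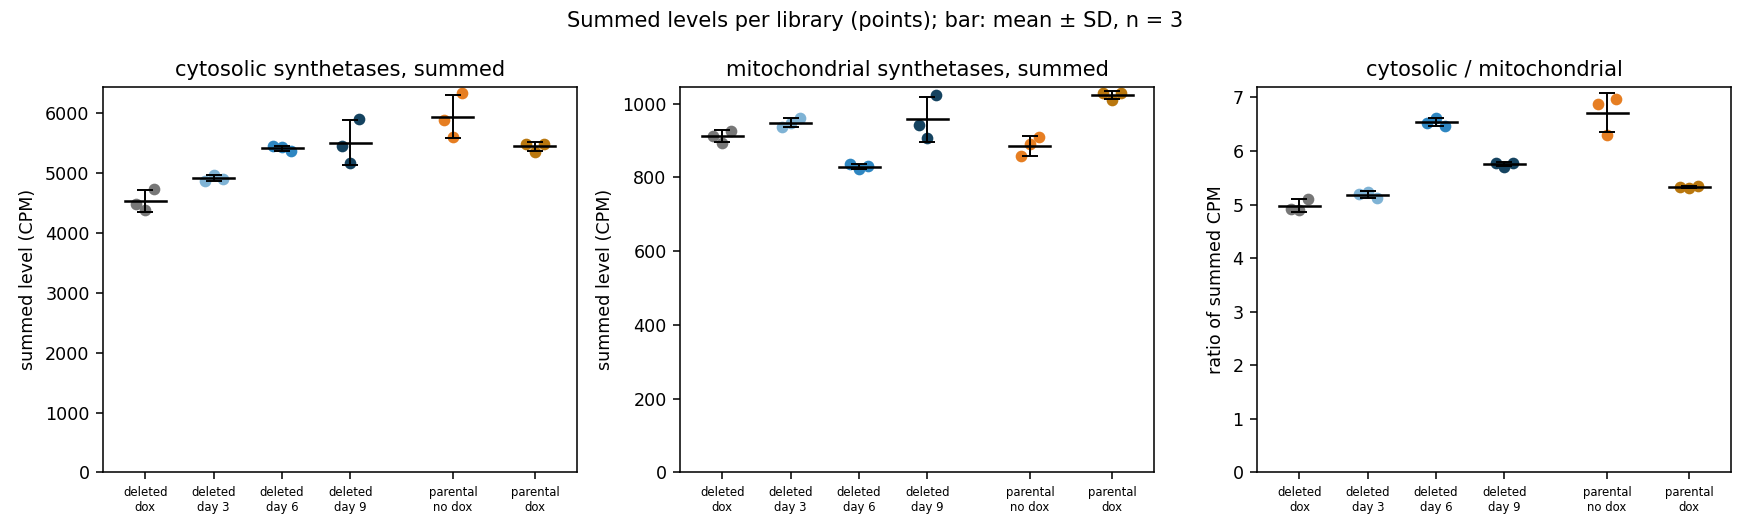
Summed CPM of the 19 cytosolic and the 16 mitochondrial members, and their ratio, in each library (points; bars are mean ± SD, n = 3) of the deleted line (doxycycline, day 3, day 6, day 9) and the parental line (no doxycycline, doxycycline). The ratio is highest on day 6 (6.54 ± 0.0732) and in parental cells without doxycycline (6.72 ± 0.362).

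In the libraries labelled day 3, 9 of the 35 members were called higher than with doxycycline and 1 lower, fewer calls than on day 6 or day 9. A member was called at a Benjamini-Hochberg adjusted p under 0.05 over the 21615 genes tested. Of the 19 cytosolic members, 5 were higher (CARS1, FARSA, GARS1, MARS1 and WARS1) and 0 lower, with 10 at an unadjusted p under 0.05, and DESeq2 called 7 higher and 1 lower. Of the 16 mitochondrial members, 4 were higher (AARS2, CARS2, LARS2 and SARS2) and 1, RARS2, was lower. Over all genes tested, 6.50% were called higher and 6.87% lower. Median log2 fold changes were 0.12 for cytosolic and 0.07 for mitochondrial members, against -0.00240 over all genes. These counts depended on single libraries: the cytosolic count ran from 1 (without deleted-line doxycycline replicate 1 or 2 or day 3 replicate 2 or 3) to 7 (without doxycycline replicate 3), and the mitochondrial count from 1 (without doxycycline replicate 1 or day 3 replicate 2 or 3) to 4.

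In the libraries labelled day 6 the classes moved apart. Of the cytosolic members, 10 were higher than with doxycycline (AARS1, CARS1, GARS1, IARS1, LARS1, MARS1, NARS1, SARS1, WARS1 and YARS1) and 5 lower (FARSA, FARSB, KARS1, QARS1 and RARS1). Of the mitochondrial members, 1 was higher (VARS2) and 6 were lower (AARS2, CARS2, EARS2, FARS2, LARS2 and YARS2). Over all genes, 14.0% were called higher and 14.0% lower. Median log2 fold changes were 0.25 for cytosolic and -0.15 for mitochondrial members, against 0.01 over all genes. Scaled by library size alone, the mitochondrial median was -0.08, 12 cytosolic members were higher and 2 lower, and 64.3% of all calls were higher, against 50.0% with TMM. Against day 3, 10 cytosolic members were higher on day 6 and 7 lower, and 1 mitochondrial member was higher and 7 lower, where 21.9% of all genes were higher and 20.8% lower.

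In the libraries labelled day 9 both classes held genes that were higher than with doxycycline, and the lower calls were mitochondrial. Of the cytosolic members, 11 were higher (CARS1, FARSA, GARS1, HARS1, KARS1, MARS1, NARS1, RARS1, TARS1, VARS1 and WARS1) and 0 lower, with 13 at an unadjusted p under 0.05, and DESeq2 called 11 higher and 1 lower. Of the mitochondrial members, 8 were higher (AARS2, CARS2, HARS2, LARS2, MARS2, PARS2, SARS2 and YARS2) and 5 lower (FARS2, IARS2, NARS2, RARS2 and WARS2). Over all genes, 22.6% were called higher and 23.8% lower. Median log2 fold changes were 0.29 and 0.16 for cytosolic and mitochondrial members, against -0.01 over all genes. The mitochondrial median was 0.10 with library size alone, 0.07 with the trend on exonic length and gene span removed and 0.03 with GC added to that trend. With the length and span trend removed, 8 mitochondrial members were called in place of 13, with 5 higher and 3 lower.

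Tested directly against day 6, day 9 had 10 cytosolic members higher and 5 lower (AARS1, IARS1, LARS1, SARS1 and YARS1), and 9 mitochondrial members higher and 2 lower (NARS2 and RARS2). Over all genes, 28.6% were called higher and 30.2% lower in that comparison. The difference was largest for FARSA (1.11 ± 0.10, adjusted p = 3.0e-08) and AARS2 (1.06 ± 0.09, adjusted p = 1.9e-08). Scaling by library size alone moved the median over all genes to -0.15, against -0.02 with TMM, and 38.6% of calls were then higher, against 48.7%. With that scaling, 8 cytosolic members were higher and 7 lower, and 8 mitochondrial members higher and 6 lower.

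The parental line, whose label names no tagged SARS2 copy, also moved with the drug. Without doxycycline, 10 cytosolic members were higher (AARS1, CARS1, EPRS1, GARS1, IARS1, LARS1, MARS1, NARS1, SARS1 and YARS1) and 5 lower (FARSA, FARSB, HARS1, KARS1 and VARS1). No mitochondrial member was higher and 7 were lower (AARS2, CARS2, EARS2, FARS2, LARS2, TARS2 and YARS2), and DESeq2 also called 0 higher and 7 lower. A count of 8 mitochondrial members had an unadjusted p under 0.05. Over all genes, 21.0% were called higher and 18.4% lower. Median log2 fold changes were 0.18 for cytosolic and -0.15 for mitochondrial members, against 0.03 over all genes, and the cytosolic median was 0.10 without parental no-doxycycline replicate 3. Fold changes given below for parental cells are without doxycycline over with it. This comparison shares no library with the day 6 comparison. Of the 10 cytosolic members called higher on day 6, 9 were among the 10 called higher in parental cells, the exceptions being WARS1 on day 6 and EPRS1 in parental cells. All 6 mitochondrial members called lower on day 6 were among the 7 called lower in parental cells. Over all genes, 56.1% of those called higher on day 6 were also called higher in parental cells, or 37.5% of the parental calls, and 52.8% of those called lower on day 6 were also called lower there, or 40.3% of the parental calls.

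With doxycycline in both, the deleted line had lower levels of many members than the parental line. Of the cytosolic members, 13 were lower (with IARS1 at -0.28 and SARS1 at -0.27 nearest to 0 and GARS1 at -0.49 farthest) and 1, LARS1, was higher (0.34 ± 0.06, adjusted p = 0.00045). Of the mitochondrial members, 0 were higher and 4 lower (SARS2, MARS2, YARS2 and EARS2), with 9 at an unadjusted p under 0.05, and DESeq2 called 0 higher and 5 lower. Over all genes, 9.32% were called higher and 9.97% lower. MARS2, the mitochondrial methionyl enzyme, had 28.8, 30.4 and 30.2 CPM in the deleted line and 46.0, 46.3 and 47.9 in parental cells (-0.65 ± 0.09, adjusted p = 6.1e-05), with no overlap. With only these groups in the fit, 9 mitochondrial members were called, all lower. The IARS1 call did not hold without parental doxycycline replicate 1 (-0.27) or 2 (-0.27) or deleted-line doxycycline replicate 1 (-0.27), and the SARS1 call without deleted-line doxycycline replicate 2 (-0.23).

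The change of the deleted line minus that of the parental line was tested as an interaction, with the parental libraries carrying no day label. On day 6, 4 cytosolic members exceeded the parental change (FARSA, MARS1, VARS1 and WARS1) and 2 fell below it (LARS1 and QARS1), where 5.49% of all genes were above and 7.14% below. For mitochondrial members the edgeR count was 0 in both directions on day 6, with 3 at an unadjusted p under 0.05 and 0 called by DESeq2. A missed threshold does not show that the changes were alike. On day 3, 6 cytosolic members were above and 5 below, and 7 mitochondrial members above and 1 below (18.6% and 20.9% of all genes). On day 9, 9 cytosolic members were above and 4 below, and 8 mitochondrial members above and 3 below (24.4% and 27.3% of all genes).

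**Figure D3:**
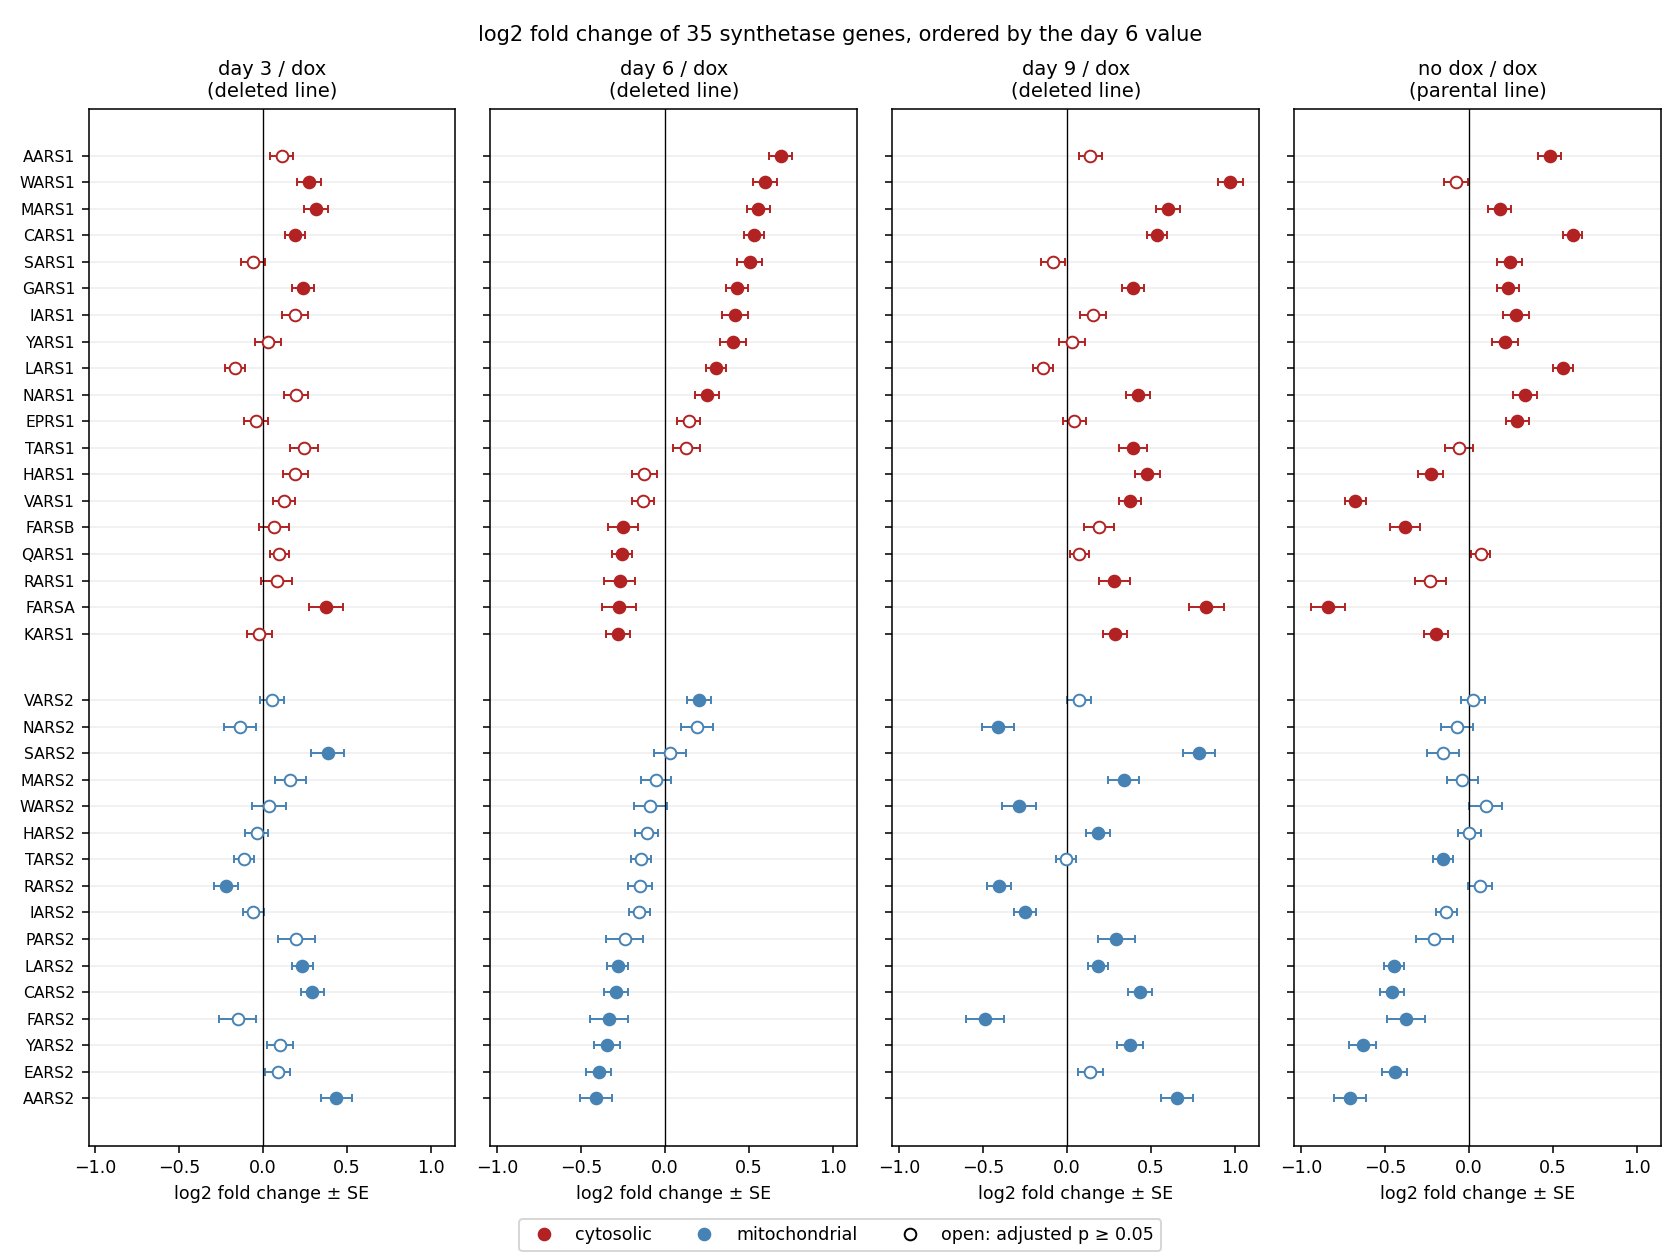
log2 fold change ± SE (edgeR, 3 libraries a group) of the 35 members on day 3, day 6 and day 9 against doxycycline in the deleted line and for no doxycycline against doxycycline in parental cells. Cytosolic members (upper block) and mitochondrial members (lower block) are ordered by the day 6 value, and open circles missed an adjusted p of 0.05. FARSA and AARS2 lie below 0 on day 6 and in parental cells and above 0 on day 3 and day 9.

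SARS1, the cytosolic seryl enzyme and partner of SARS2, was at its highest on day 6 within the deleted line. In the deleted line SARS1 had 304, 287 and 322 CPM with doxycycline, 296, 293 and 288 on day 3, 419, 450.4 and 427 on day 6 and 275, 259 and 327 on day 9. Its parental libraries had 447, 406 and 451 CPM without doxycycline, against 372, 359 and 372 with it. All day 6 libraries lay above those of the other deleted-line groups, day 9 overlapped doxycycline, and the parental libraries without the drug lay above those with it. Its log2 fold changes were 0.50 ± 0.07, adjusted p = 6.2e-05 on day 6, -0.08 ± 0.07, adjusted p = 0.36 on day 9 and 0.24 ± 0.07, adjusted p = 0.012 in parental cells. The parental call did not hold without parental no-doxycycline replicate 1 (0.21) and with the length and span trend removed (0.19) or the GC, length and span trend removed (0.19).

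AARS1, the cytosolic alanyl enzyme, had the largest day 6 change of all members. It had 306, 282 and 297 CPM with doxycycline, 316, 321 and 319 on day 3, 461, 495 and 470.4 on day 6 and 329, 346 and 299.7 on day 9 in the deleted line. Parental AARS1 stood at 473, 477 and 568 CPM without doxycycline, against 368, 354 and 365 with it. The day 6 libraries and the parental libraries without doxycycline were well above their doxycycline libraries, and day 9 overlapped them. These gave log2 fold changes of 0.69 ± 0.07, adjusted p = 2.0e-06 on day 6, 0.14 ± 0.07, adjusted p = 0.1 on day 9 and 0.48 ± 0.07, adjusted p = 2.5e-05 in parental cells. Its partner AARS2, the mitochondrial alanyl enzyme, went the other way on day 6 and in parental cells. AARS2 had 45.0, 42.9 and 50.4 CPM with doxycycline, 60.1, 60.0 and 67.2 on day 3, 38.8, 28.5 and 36.8 on day 6 and 72.7, 70.1 and 74.9 on day 9. Parental AARS2 had 30.8, 34.2 and 34.6 CPM without doxycycline, against 53.0, 53.5 and 56.1 with it. Day 6 lay below doxycycline and days 3 and 9 above it in every library. The log2 fold change of AARS2 was 0.44 ± 0.09, adjusted p = 0.0056 on day 3, -0.41 ± 0.09, adjusted p = 0.0032 on day 6, 0.65 ± 0.09, adjusted p = 1.5e-05 on day 9 and -0.71 ± 0.09, adjusted p = 1.4e-05 in parental cells. With the parental change subtracted, the day 6 value of AARS2 was 0.30 ± 0.13, adjusted p = 0.15.

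CARS1, GARS1, MARS1 and WARS1 were the members higher at all 3 labelled days. The promoters of CARS1, GARS1 and MARS1 hold the composite element and that of WARS1 does not. AARS1, IARS1, NARS1 and TARS1 hold it too and were not called at all 3 days. CARS1, the cytosolic cysteinyl enzyme, had 96.4, 91.2 and 99.0 CPM with doxycycline, 108, 112 and 107 on day 3, 133, 138 and 142 on day 6 and 141, 141 and 133 on day 9. Without overlap at any day, its log2 fold change was 0.19 ± 0.06, adjusted p = 0.038 on day 3, 0.53 ± 0.06, adjusted p = 6.3e-06 on day 6 and 0.53 ± 0.06, adjusted p = 7.8e-07 on day 9. Parental CARS1 had 197, 193 and 220.3 CPM without doxycycline, against 136, 133 and 129 with it (0.62 ± 0.06, adjusted p = 5.0e-07), the largest rise of a member in that line. MARS1, the cytosolic methionyl enzyme of the multisynthetase complex, had 278, 249.6 and 283 CPM with doxycycline, 327, 336 and 346 on day 3, 409, 384 and 399 on day 6 and 408, 386 and 437 on day 9. All libraries of each day lay above doxycycline, with log2 fold changes of 0.31 ± 0.07, adjusted p = 0.0068 on day 3, 0.56 ± 0.07, adjusted p = 1.8e-05 on day 6 and 0.60 ± 0.07, adjusted p = 1.4e-06 on day 9. Parental MARS1 had 397, 407 and 476 CPM without doxycycline, against 387, 371 and 369 with it (0.18 ± 0.07, adjusted p = 0.043). The CARS1 day 3 call did not hold without deleted-line doxycycline replicate 1 (0.20) or 2 (0.16) or day 3 replicate 1 (0.20), 2 (0.17) or 3 (0.20) and with no filter on low counts (0.19) or the replicate number as a block (0.19). The parental MARS1 call did not hold without parental no-doxycycline replicate 3 (0.10) or parental doxycycline replicate 1 (0.20), 2 (0.17) or 3 (0.17) and with DESeq2's size factors (0.17), no filter on low counts (0.18), only the compared groups in the fit (0.16) or DESeq2 (0.17).

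MARS1 and CARS1 each share bases with a gene on the other strand, and the sources used here do not give the strand setting of the counting. MARS1 shares 65 exonic bases, 2.32% of its exons, with DDIT3, the stress transcription factor CHOP, whose log2 fold change was 1.43 ± 0.12, adjusted p = 4.6e-07 on day 6. CARS1 shares 302 exonic bases, 8.34%, with the antisense gene CARS1-AS1. Other members share exonic bases with a gene on the other strand too, namely WARS2 (8.11% of its exons, with WARS2-AS1), CARS2 (4.37%, with ING1), AARS2 (4.04%), FARS2 (1.75%) and FARSA (0.33%). The part of these overlaps in the results was not tested. CARS1, IARS1, VARS1, SARS2 and VARS2 also have annotated copies on alternate or patch sequences of the assembly.

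GARS1, the glycyl enzyme of both compartments, was higher at each day and had 299.5, 293 and 322 CPM with doxycycline, 355, 362 and 362 on day 3, 409, 419 and 403 on day 6 and 391, 367 and 445 on day 9, with no overlap with doxycycline at any day. Its log2 fold change was 0.24 ± 0.07, adjusted p = 0.023 on day 3, 0.43 ± 0.07, adjusted p = 0.00012 on day 6 and 0.39 ± 0.07, adjusted p = 7.2e-05 on day 9. Parental GARS1 had 541, 485 and 483 CPM without doxycycline, against 434, 422 and 429 with it (0.23 ± 0.07, adjusted p = 0.0085). The day 3 call did not hold without deleted-line doxycycline replicate 1 (0.22) or 2 (0.21) or day 3 replicate 1 (0.25), 2 (0.23) or 3 (0.23), and the parental call without parental no-doxycycline replicate 1 (0.16). KARS1, the lysyl enzyme that also serves both, took another course. KARS1 had 216, 226 and 245 CPM with doxycycline, 226, 232 and 218 on day 3, 199.5, 183 and 182 on day 6 and 269, 259.8 and 308 on day 9. Its libraries were lowest on day 6 and highest on day 9, with log2 fold changes of -0.28 ± 0.07, adjusted p = 0.007 and 0.29 ± 0.07, adjusted p = 0.0031, and day 3 gave -0.02 ± 0.07, adjusted p = 0.88. Parental KARS1 had 213, 195 and 230.3 CPM without doxycycline, against 244, 239 and 248 with it (-0.20 ± 0.07, adjusted p = 0.038). The day 6 call did not hold without deleted-line doxycycline replicate 3 (-0.23), and the parental call without parental no-doxycycline replicate 2 (-0.15) or parental doxycycline replicate 1 (-0.19), 2 (-0.21) or 3 (-0.18) and with scaling by library size alone (-0.15) or the length and span trend removed (-0.13). Transcripts of either gene for the cytosolic and the mitochondrial protein are not separated in these counts.

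WARS1, the cytosolic tryptophanyl enzyme, known to be induced by interferon gamma, had the largest day 9 change of all members. WARS1 had 144, 131 and 155 CPM with doxycycline, 168, 179.8 and 172 on day 3, 233, 198 and 218 on day 6 and 278, 292 and 273 on day 9. Each labelled day lay above doxycycline in every library, with log2 fold changes of 0.27 ± 0.07, adjusted p = 0.016, 0.59 ± 0.07, adjusted p = 1.2e-05 and 0.97 ± 0.07, adjusted p = 8.9e-09 on days 3, 6 and 9. Parental WARS1 had 180.2, 184 and 206 CPM without doxycycline, against 201, 197 and 204 with it, and the groups overlapped (-0.08 ± 0.07, adjusted p = 0.41). The difference from the parental change was 0.67 ± 0.10, adjusted p = 0.00056 on day 6 and 1.05 ± 0.10, adjusted p = 9.3e-08 on day 9. The day 3 call did not hold without deleted-line doxycycline replicate 1 (0.28) or 2 (0.21) or day 3 replicate 2 (0.25) or 3 (0.28). WARS2, its mitochondrial partner, went uncalled on day 6 (-0.09 ± 0.10, adjusted p = 0.56) and was lower on day 9 (-0.29 ± 0.10, adjusted p = 0.024). The day 9 call of WARS2 was lost without deleted-line doxycycline replicate 1 (-0.29) or 3 (-0.27) or day 9 replicate 1 (-0.25) or 2 (-0.20) and with the length and span trend removed (-0.17), the GC, length and span trend removed (-0.13) or only the compared groups in the fit (-0.29).

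FARSA and FARSB encode the alpha and beta subunits of the cytosolic phenylalanyl enzyme, and FARSA had the widest swing of all members between day 6 and day 9. FARSA had 149.9, 146 and 180.4 CPM with doxycycline, 193, 209 and 216 on day 3, 149.6, 111 and 133 on day 6 and 273, 257 and 318 on day 9. Parental FARSA had 114, 131 and 122 CPM without doxycycline, against 212, 215 and 230.3 with it. Day 9 lay above every other library of the deleted line, and the parental libraries without doxycycline were all below those with it. The log2 fold change was 0.37 ± 0.10, adjusted p = 0.021 on day 3, -0.27 ± 0.10, adjusted p = 0.0498 on day 6, 0.83 ± 0.10, adjusted p = 2.5e-06 on day 9 and -0.84 ± 0.10, adjusted p = 5.8e-06 in parental cells. The day 3 call did not hold without deleted-line doxycycline replicate 1 (0.33) or 2 (0.32) or day 3 replicate 2 (0.36) or 3 (0.34). The day 6 call did not hold without deleted-line doxycycline replicate 1 (-0.31) or 3 (-0.17) or day 6 replicate 2 (-0.18) or 3 (-0.29) and with DESeq2's size factors (-0.27), scaling by library size alone (-0.20), the length and span trend removed (-0.21) or the GC, length and span trend removed (-0.27). FARSB moved less, with log2 fold changes of -0.25 ± 0.09, adjusted p = 0.04 on day 6, 0.19 ± 0.09, adjusted p = 0.085 on day 9 and -0.38 ± 0.09, adjusted p = 0.0022 in parental cells. The FARSB day 6 call did not hold without deleted-line doxycycline replicate 2 (-0.27) or 3 (-0.20) or day 6 replicate 2 (-0.22) or 3 (-0.25) and with scaling by library size alone (-0.18).

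The other members of the multisynthetase complex did not share a direction on day 6. LARS1, the leucyl enzyme, rose on day 6 (0.30 ± 0.06, adjusted p = 0.00078) and in parental cells (0.56 ± 0.06, adjusted p = 1.3e-06). LARS1 had 350.3, 362 and 356 CPM with doxycycline, 323, 316 and 313 on day 3, 436, 449 and 434 on day 6 and 322, 308 and 337 on day 9. Parental LARS1 had 420.2, 376 and 448 CPM without doxycycline, against 281, 285 and 278 with it, without overlap, and day 6 lay above every other deleted-line library. IARS1, the isoleucyl enzyme, rose on day 6 (0.42 ± 0.08, adjusted p = 0.00058) and in parental cells (0.28 ± 0.08, adjusted p = 0.0068). The parental IARS1 call did not hold without parental no-doxycycline replicate 3 (0.19) and with the length and span trend removed (0.18). QARS1, the glutaminyl enzyme, fell on day 6 (-0.26 ± 0.06, adjusted p = 0.0026) and gave 0.07 ± 0.06, adjusted p = 0.35 in parental cells. RARS1, the arginyl enzyme, fell on day 6 (-0.27 ± 0.09, adjusted p = 0.036) and rose on day 9 (0.28 ± 0.09, adjusted p = 0.018). The RARS1 day 6 call did not hold without deleted-line doxycycline replicate 3 (-0.18) or day 6 replicate 2 (-0.29) or 3 (-0.24) and with scaling by library size alone (-0.20), the length and span trend removed (-0.23) or the GC, length and span trend removed (-0.15), and the day 9 call without deleted-line doxycycline replicate 1 (0.24) or 2 (0.24) or day 9 replicate 3 (0.18) and with only the compared groups in the fit (0.28). EPRS1, which joins the glutamyl and prolyl enzymes in 1 protein, was not called at any of the 3 days (-0.04, 0.14 and 0.04) and rose in parental cells (0.29 ± 0.07, adjusted p = 0.0028).

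HARS1 and HARS2, the cytosolic and mitochondrial histidyl enzymes, lie head to head on opposite strands of chromosome 5. HARS1 had 73.8, 76.6 and 85.3 CPM with doxycycline, 87.4, 93.0 and 88.7 on day 3, 73.1, 67.6 and 75.4 on day 6 and 111, 98.1 and 119.5 on day 9. HARS2 had 39.5, 38.3 and 40.9 CPM with doxycycline, 37.2, 38.1 and 40.2 on day 3, 36.6, 36.5 and 36.9 on day 6 and 47.4, 46.6 and 41.0 on day 9. In both genes day 9 was the highest group on average, with log2 fold changes of 0.48 ± 0.07, adjusted p = 3.3e-05 for HARS1 and 0.18 ± 0.07, adjusted p = 0.034 for HARS2, whose difference was not tested. In parental cells HARS1 had 80.1, 81.1 and 89.6 CPM without doxycycline, against 98.8, 95.9 and 98.7 with it, and HARS2 had 42.0, 43.9 and 47.1 CPM without doxycycline, against 46.2, 42.4 and 44.0 with it. HARS1 was lower there without doxycycline (-0.23 ± 0.07, adjusted p = 0.021), while HARS2 gave 0.00 ± 0.07, adjusted p = 0.97. The day 9 HARS2 call did not hold without deleted-line doxycycline replicate 1 (0.18) or 2 (0.16) or day 9 replicate 1 (0.15) or 2 (0.16) and with scaling by library size alone (0.13), no filter on low counts (0.20), the length and span trend removed (0.03), the GC, length and span trend removed (0.00) or only the compared groups in the fit (0.19). The parental HARS1 call did not hold without parental no-doxycycline replicate 1 (-0.21) or parental doxycycline replicate 1 (-0.22) or 3 (-0.22) and with the length and span trend removed (-0.16).

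Of the remaining cytosolic members, VARS1, the valyl enzyme, which binds elongation factor 1, was lower in parental cells without doxycycline and higher on day 9. VARS1 had 227, 273 and 227 CPM without doxycycline, against 388, 381 and 392 with it in parental cells and 314, 305 and 312 CPM with doxycycline, 329, 337 and 349 on day 3, 290.1, 275 and 286 on day 6 and 404, 382 and 422 on day 9 in the deleted line. The parental groups did not overlap (-0.68 ± 0.07, adjusted p = 5.6e-07), day 6 gave -0.13 ± 0.07, adjusted p = 0.15 and day 9 0.38 ± 0.07, adjusted p = 0.00011, a value that was 0.20 with the GC, length and span trend removed. YARS1, the tyrosyl enzyme, rose on day 6 (0.40 ± 0.08, adjusted p = 0.00078) and in parental cells (0.22 ± 0.08, adjusted p = 0.032). NARS1, the asparaginyl enzyme, rose on day 6 (0.25 ± 0.07, adjusted p = 0.014), on day 9 (0.42 ± 0.07, adjusted p = 8.7e-05) and in parental cells (0.34 ± 0.07, adjusted p = 0.001). TARS1, the threonyl enzyme, rose on day 9 (0.39 ± 0.08, adjusted p = 0.00063) and gave 0.13 ± 0.08, adjusted p = 0.27 on day 6. The NARS1 day 6 call did not hold without deleted-line doxycycline replicate 2 (0.20) or day 6 replicate 2 (0.22), and the parental YARS1 call without parental no-doxycycline replicate 1 (0.20), 2 (0.21) or 3 (0.21) or parental doxycycline replicate 1 (0.23), 2 (0.21) or 3 (0.21) and with the GC, length and span trend removed (0.21).

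**Figure D4:**
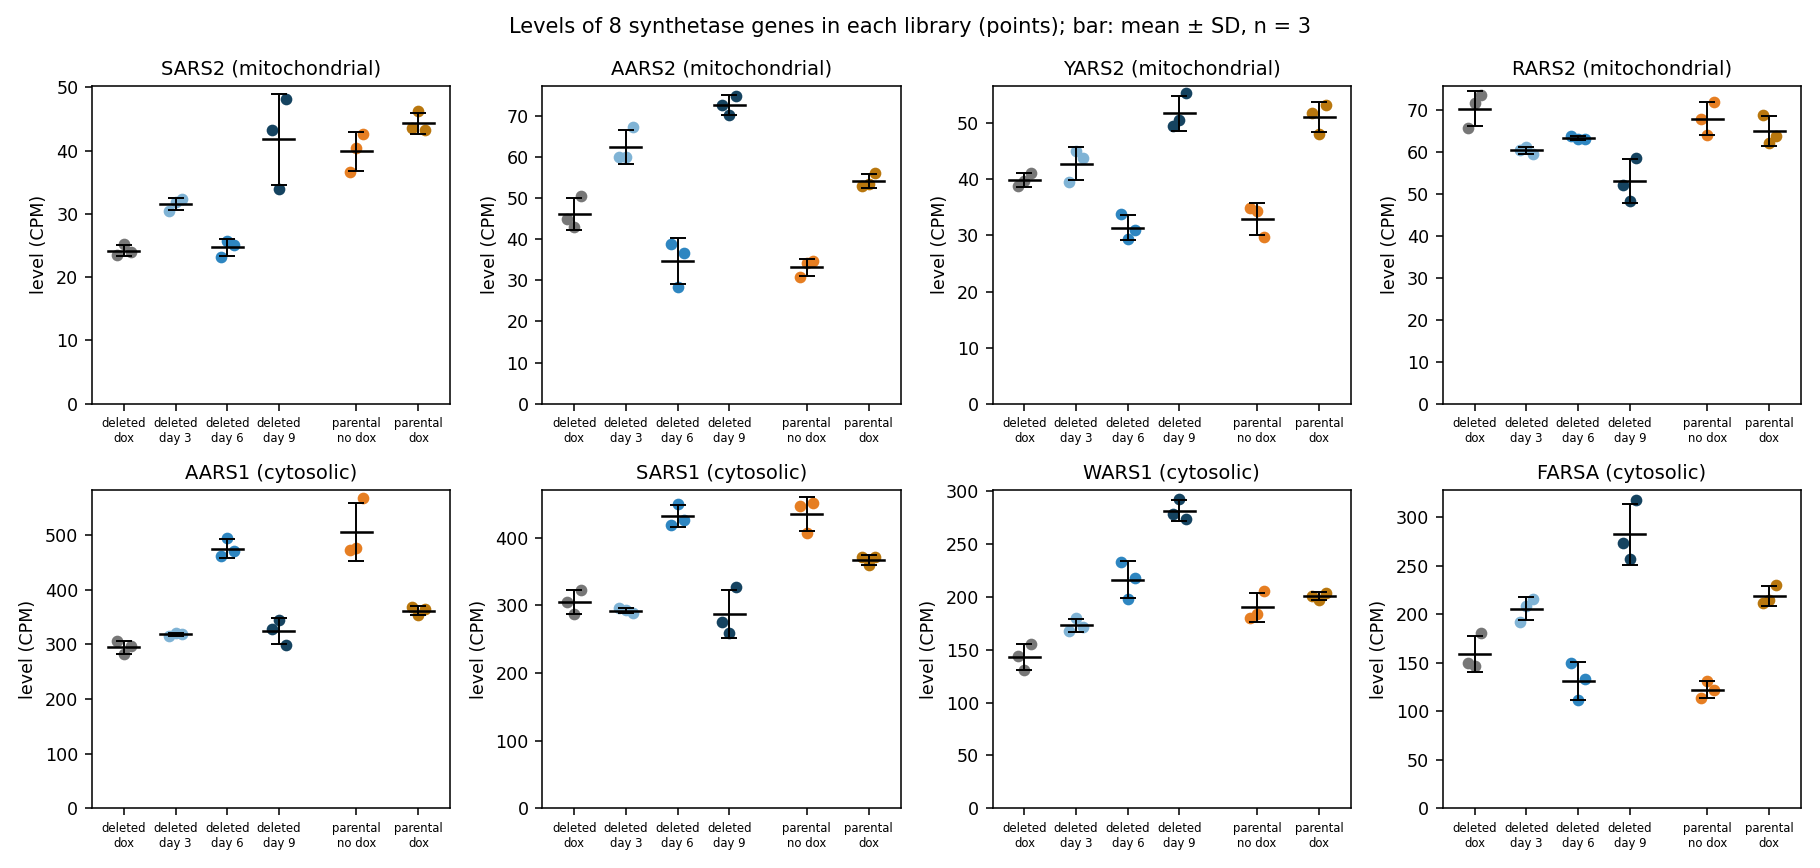
CPM in each library (points; bars are mean ± SD, n = 3) of SARS2, AARS2, YARS2 and RARS2 (upper row, mitochondrial) and AARS1, SARS1, WARS1 and FARSA (lower row, cytosolic) in the deleted line (doxycycline, day 3, day 6, day 9) and the parental line (no doxycycline, doxycycline). AARS1 and SARS1 are highest on day 6 within the deleted line, WARS1, FARSA and AARS2 on day 9, and RARS2 is lowest on day 9.

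Among the mitochondrial members, AARS2, CARS2, LARS2, YARS2 and EARS2 were lower on day 6 and in parental cells without doxycycline. CARS2, the cysteinyl enzyme, had 59.7, 60.5 and 66.6 CPM with doxycycline, 74.2, 78.0 and 76.6 on day 3, 53.7, 46.3 and 52.8 on day 6 and 85.6, 83.6 and 83.2 on day 9. Parental CARS2 had 50.0, 57.3 and 47.9 CPM without doxycycline, against 70.8, 71.7 and 70.7 with it. The log2 fold change of CARS2 was 0.29 ± 0.07, adjusted p = 0.011 on day 3, -0.29 ± 0.07, adjusted p = 0.0051 on day 6, 0.43 ± 0.07, adjusted p = 5.8e-05 on day 9 and -0.46 ± 0.07, adjusted p = 6.1e-05 in parental cells. No group overlapped its doxycycline libraries on day 6, on day 9 or in parental cells. YARS2, the tyrosyl enzyme, had 38.7, 39.8 and 41.2 CPM with doxycycline, 39.5, 45.0 and 43.9 on day 3, 33.8, 29.4 and 31.0 on day 6 and 49.5, 50.6 and 55.3 on day 9. Parental YARS2 had 34.8, 34.3 and 29.7 CPM without doxycycline, against 51.9, 48.1 and 53.3 with it. Its log2 fold change was -0.35 ± 0.08, adjusted p = 0.0032 on day 6, 0.38 ± 0.08, adjusted p = 0.00065 on day 9 and -0.63 ± 0.08, adjusted p = 7.6e-06 in parental cells. With the GC, length and span trend removed, the YARS2 values were -0.23 on day 6 and 0.24 on day 9. The CARS2 day 3 call did not hold without deleted-line doxycycline replicate 1 (0.26) or 2 (0.27) or day 3 replicate 2 (0.28) or 3 (0.29).

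LARS2, the leucyl enzyme of mitochondria, had 98.6, 92.1 and 100.1 CPM with doxycycline, 113, 113 and 116 on day 3, 81.4, 77.5 and 80.2 on day 6 and 107, 106 and 118 on day 9. Parental LARS2 had 67.9, 71.1 and 78.4 CPM without doxycycline, against 99.7, 96.7 and 99.6 with it. No labelled day overlapped doxycycline. Day 6 lay below doxycycline (-0.28 ± 0.06, adjusted p = 0.002), as did the parental libraries without the drug (-0.45 ± 0.06, adjusted p = 1.8e-05), while day 3 gave 0.23 ± 0.06, adjusted p = 0.017 and day 9 0.19 ± 0.06, adjusted p = 0.018. The LARS2 day 3 call did not hold without deleted-line doxycycline replicate 1 (0.25) or 2 (0.20) or day 3 replicate 2 (0.24) or 3 (0.22). The day 9 call did not hold without deleted-line doxycycline replicate 2 (0.15) or day 9 replicate 3 (0.13) and with scaling by library size alone (0.12), no filter on low counts (0.20) or only the compared groups in the fit (0.19), and its value was 0.40 with the length and span trend removed. The day 6 value was -0.43 with the GC, length and span trend removed. EARS2, the glutamyl enzyme, charges both the glutamate and, as a first step, the glutamine transfer RNAs of mitochondria. EARS2 had 55.2, 52.1 and 51.4 CPM with doxycycline, 56.1, 56.6 and 55.8 on day 3, 41.9, 37.8 and 41.0 on day 6 and 55.0, 57.6 and 62.2 on day 9. Parental EARS2 had 43.8, 49.2 and 53.4 CPM without doxycycline, against 62.8, 66.6 and 69.5 with it. Day 6 and the parental libraries without the drug lay below their doxycycline libraries, and day 9 overlapped them. The log2 fold change of EARS2 was -0.40 ± 0.07, adjusted p = 0.00063 on day 6, 0.14 ± 0.07, adjusted p = 0.13 on day 9 and -0.44 ± 0.07, adjusted p = 0.00011 in parental cells. EARS2 shares 44.57% of its exonic bases with GGA2 on the same strand, so its counts are uncertain.

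A few mitochondrial members were instead lower on day 9. RARS2, the arginyl enzyme, had 65.7, 71.6 and 73.6 CPM with doxycycline, 60.5, 61.1 and 59.4 on day 3, 63.8, 63.2 and 63.0 on day 6 and 52.1, 48.2 and 58.6 on day 9. Parental RARS2 had 67.8, 64.1 and 71.8 CPM without doxycycline, against 68.9, 62.2 and 63.6 with it, and its groups overlapped. All day 9 libraries lay below doxycycline (-0.41 ± 0.07, adjusted p = 0.00012), and day 3 was also lower (-0.22 ± 0.07, adjusted p = 0.047). NARS2, the asparaginyl enzyme, had 65.6, 66.2 and 66.8 CPM with doxycycline, 59.3, 61.5 and 59.9 on day 3, 74.3, 78.6 and 73.3 on day 6 and 44.2, 44.7 and 60.3 on day 9, so that days 3 and 9 lay below doxycycline and day 6 above it. The log2 fold change of NARS2 was -0.41 ± 0.10, adjusted p = 0.0016 on day 9 and 0.19 ± 0.10, adjusted p = 0.15 on day 6, and its parental value was -0.07 ± 0.10, adjusted p = 0.58, from 65.2, 67.2 and 54.6 CPM without doxycycline, against 66.5, 63.2 and 67.0 with it. The RARS2 day 3 call did not hold without deleted-line doxycycline replicate 1 (-0.27), 2 (-0.21) or 3 (-0.19) or day 3 replicate 1 (-0.22), 2 (-0.23) or 3 (-0.21) and with no filter on low counts (-0.22), the replicate number as a block (-0.22) or the length and span trend removed (-0.18). The NARS2 day 9 value was -0.24 with the length and span trend removed, and the call did not hold with the GC, length and span trend removed (-0.22).

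FARS2, the mitochondrial phenylalanyl enzyme, is a single chain, unlike the cytosolic enzyme. FARS2 had 19.7, 17.9 and 19.2 CPM with doxycycline, 17.9, 15.7 and 17.5 on day 3, 15.5, 15.2 and 14.4 on day 6 and 13.1, 10.9 and 16.6 on day 9. Parental FARS2 had 14.3, 13.6 and 15.2 CPM without doxycycline, against 19.6, 17.6 and 18.7 with it. Days 6 and 9 and the parental libraries without the drug lay below their doxycycline libraries. Its log2 fold change was -0.33 ± 0.11, adjusted p = 0.033 on day 6, -0.49 ± 0.11, adjusted p = 0.0015 on day 9 and -0.37 ± 0.11, adjusted p = 0.012 in parental cells. The day 9 call of this gene, which has the longest span of the members, was lost with the length and span trend removed (-0.07) or the GC, length and span trend removed (-0.10). The day 6 call did not hold without deleted-line doxycycline replicate 1 (-0.30) or 3 (-0.32) or day 6 replicate 2 (-0.35) or 3 (-0.31) and with scaling by library size alone (-0.27), while its value was -0.54 with the length and span trend removed. The parental call did not hold without parental doxycycline replicate 1 (-0.34).

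The remaining mitochondrial members are given by their calls. MARS2, the methionyl enzyme, rose on day 9 (0.34 ± 0.09, adjusted p = 0.0053), and the call did not hold without day 9 replicate 3 (0.20) and with the length and span trend removed (0.18) or the GC, length and span trend removed (0.15). PARS2, the prolyl enzyme, rose on day 9 (0.30 ± 0.11, adjusted p = 0.033), a call lost without deleted-line doxycycline replicate 1 (0.30), 2 (0.31) or 3 (0.28) or day 9 replicate 1 (0.28) or 2 (0.23) and with scaling by library size alone (0.24), no filter on low counts (0.31), the length and span trend removed (0.16), the GC, length and span trend removed (0.11) or only the compared groups in the fit (0.30). VARS2, the valyl enzyme, was the mitochondrial member that rose on day 6 (0.21 ± 0.07, adjusted p = 0.038), a call lost without deleted-line doxycycline replicate 2 (0.16) or 3 (0.19) or day 6 replicate 2 (0.20) or 3 (0.16) and with no filter on low counts (0.20), the length and span trend removed (0.19) or the GC, length and span trend removed (0.14). IARS2, the isoleucyl enzyme, fell on day 9 (-0.25 ± 0.06, adjusted p = 0.0033). TARS2, the threonyl enzyme, was not called at any of the 3 days (-0.11, -0.15 and -0.01) and fell in parental cells (-0.15 ± 0.06, adjusted p = 0.045), a call lost without parental no-doxycycline replicate 1 (-0.11) or 2 (-0.16) or parental doxycycline replicate 1 (-0.15), 2 (-0.15) or 3 (-0.16) and with scaling by library size alone (-0.11), no filter on low counts (-0.16), the replicate number as a block (-0.16), the length and span trend removed (-0.09), the GC, length and span trend removed (-0.11) or only the compared groups in the fit (-0.18).

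Genes that work beside the synthetases were taken from lists. Of the multisynthetase scaffold, AIMP2 was higher on day 3 (0.45 ± 0.13, adjusted p = 0.028) and day 9 (1.01 ± 0.13, adjusted p = 4.5e-06), lower in parental cells without doxycycline (-0.83 ± 0.13, adjusted p = 6.0e-05) and gave -0.21 ± 0.13, adjusted p = 0.24 on day 6. EEF1E1 was lower on day 6 (-0.49 ± 0.13, adjusted p = 0.0071), and AIMP1 was not called in these 4 comparisons. XPOT, which exports transfer RNAs from the nucleus, rose on day 6 (0.47 ± 0.05, adjusted p = 5.0e-06), on day 9 (0.32 ± 0.05, adjusted p = 4.8e-05) and in parental cells (0.29 ± 0.05, adjusted p = 0.00022). DTD1 and DTD2, which encode D-aminoacyl-tRNA deacylases, were lower on day 6, as was PTRH2, a peptidyl-tRNA hydrolase, at -0.77 ± 0.11, adjusted p = 4.6e-05. Of the 6 genes tested in the list that holds XPOT and these 3, 1 was higher and 4 were lower on day 6. In parental cells without doxycycline the numbers were also 1 and 4. Over all genes, 14.0% were higher and 14.0% lower on day 6, and 21.0% and 18.4% in parental cells. AARSD1, a trans-editing protein, was below the filter on low counts.

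Of 19 partners that process, modify or amidate mitochondrial transfer RNAs, 3 were higher and 1 lower on day 3, 7 were lower and the rest uncalled on day 6, and 9 higher and 1 lower on day 9. Over all genes, 6.50% were higher and 6.87% lower on day 3, 14.0% lower on day 6, and 22.6% higher and 23.8% lower on day 9. The partners' median log2 fold changes were 0.03, -0.10 and 0.13 on days 3, 6 and 9. In parental cells 3 were higher and 8 lower, where 21.0% of all genes were higher and 18.4% lower. TRMT10C, a subunit of the ribonuclease P of mitochondria, was at -0.74 ± 0.11, adjusted p = 0.00011 on day 6 and 0.42 ± 0.11, adjusted p = 0.0042 on day 9. Parental TRMT10C had 41.2, 35.6 and 36.7 CPM without doxycycline, against 62.4, 61.2 and 65.3 with it. PUS1, a pseudouridine synthase, gave -0.32 ± 0.13, adjusted p = 0.068 on day 6, 0.95 ± 0.13, adjusted p = 7.7e-06 on day 9 and -0.98 ± 0.13, adjusted p = 1.2e-05 in parental cells. GATB, of the amidotransferase that completes glutaminyl-tRNA from the product of EARS2, fell on day 6 (-0.31 ± 0.07, adjusted p = 0.0033). Of the 4 mitochondrial elongation factors, TUFM (-0.20 ± 0.06, adjusted p = 0.021) and TSFM (-0.38 ± 0.10, adjusted p = 0.0072) fell on day 6. In parental cells 3 of the 4 were lower without doxycycline, with a median log2 fold change of -0.30, against -0.16 on day 6. Of the 5 cytosolic elongation factors, EEF1A1, EEF1B2 and EEF1D fell on day 6, with EEF1B2 at -0.45 ± 0.07, adjusted p = 0.00023. In parental cells 1 of the 5 was lower without doxycycline.

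ATF4 and its targets outside the synthetases were mostly higher in the same comparisons. Of the 18 genes of that list, 11 were higher on day 3, 18 on day 6, 15 on day 9 and 15 in parental cells without doxycycline, with the rest uncalled in each. The shares of all genes called higher were 6.50%, 14.0%, 22.6% and 21.0% in the same order. Median log2 fold changes of the list were 0.36, 0.91, 0.91 and 0.56, against medians over all genes that lay near 0 as given above. With doxycycline in both, 13 of 18 were lower in the deleted line, as were 9.97% of all genes. NUPR1, a stress-induced chromatin protein, had the largest day 6 value of the list (1.71 ± 0.37, adjusted p = 0.0022) and day 9 value (2.54 ± 0.37, adjusted p = 1.5e-05). These values rest on low levels: NUPR1 had 0.313, 0.369 and 0.518 CPM with doxycycline and 1.64, 1.09 and 1.15 on day 6. On day 9 it had 2.51, 3.52 and 0.870 CPM, the last in replicate 3, which stood apart. ASNS, asparagine synthetase, rose on day 6 (1.21 ± 0.19, adjusted p = 0.00016) and gave -0.39 ± 0.20, adjusted p = 0.11 on day 9. Of the members with a composite element, AARS1, CARS1, GARS1, IARS1, MARS1 and NARS1 rose on day 6, TARS1 was not called and YARS2 fell. Among cytosolic members whose promoter had no match, SARS1 and WARS1 rose and FARSA, FARSB, KARS1, QARS1 and RARS1 fell. LARS1 and YARS1 also rose, but no promoter was available for them. The part of the element in these changes was not tested.

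The nuclear-retained RNA NEAT1 moved with the same labels, being higher on day 6 (1.25 ± 0.18, adjusted p = 6.6e-05) and in parental cells without doxycycline (1.89 ± 0.19, adjusted p = 6.5e-07), and lower on day 9 (-1.24 ± 0.19, adjusted p = 2.6e-05). MALAT1 was not called on day 6 or day 9 and was higher in parental cells without doxycycline. The summed CPM of both RNAs, nearly all of it from MALAT1, ran over 1119 to 1422 on day 6 and 854 to 1456 on day 9. It was 1121 to 1239.9 with doxycycline in the deleted line, and 1026 to 1254 without and 735 to 786 with doxycycline in parental cells. The part of RNA composition in the members' changes was not tested. Of the members, 11 have 15 named pseudogenes in the tables, and these held at most 27 counts in a library, or 0.116% of the count of the gene they copy.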

How the data were processed

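Expression was measured by RNA sequencing in 18 libraries. Per the submitters' processing notes, the tools used include cutadapt 2.3, HISAT2, SAMtools, Subread with featureCounts, and DESeq2. The authors deposited 3 tables of raw counts per gene, with 59251 genes each, and 6 libraries held in a pair of tables had identical values. Column headers carry RF, and neither the strand setting nor the annotation release is given in these sources. Genes of the mitochondrial chromosome, 37 in number, had 0 counts in every library.

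Counts were tested in R 4.3.3 with edgeR 4.0.16 (quasi-likelihood F-test over all 18 libraries in 6 groups, TMM scaling, filterByExpr with a minimum count of 10 and a minimum total of 15, Benjamini-Hochberg adjustment over the 21615 genes kept). The script was tested on simulated counts. CPM used TMM-scaled library sizes, and RPKM the union of the exons listed with the deposited counts. GENCODE transcripts served for GC content alone. The alternatives were DESeq2 1.42.0, other scalings, no filter, only the groups compared, a replicate block, leaving out each library and removal of length and span trends. A version with GC content was added after the data had been seen. Deviations from group means of same-numbered libraries correlated at -0.077 to 0.07, and those of other-numbered libraries at -0.091 to 0.109. These values show no shared deviation by number, but cannot show whether same-numbered libraries were handled together.

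Values per library are given for SARS2, SARS1, GARS1, KARS1, HARS1, HARS2 and WARS1, and for the 5 largest called changes of each class in each comparison with doxycycline. Members are a list of gene names, but they and the other lists were chosen with earlier results of these data known. Part of the lists is not reported here. Libraries held 66850705 to 111123481 counts.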

Additional observations from a re-analysis of the deposited data

Results flagged for a closer look

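The results below are listed because the change of the deleted line differed from the change of the parental line without doxycycline in the edgeR interaction test (adjusted p under 0.05, 3 libraries a group). The parental libraries without doxycycline carry no day label, so time and line cannot be told apart. The test for a single distant value was not applied, since each group has 3 libraries. By chi-square per gene, parental no-doxycycline replicate 3 (69.6 and 86.6 against its replicates, 21.1 between those) and day 9 replicate 3 (48.9 and 95, against 22.3) stood apart.

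For libraries labelled day 3, 11 cytosolic members differed, most of all FARSA (1.21 on the log2 scale), VARS1 (0.80) and LARS1 (-0.72), and so did 8 mitochondrial members, most of all AARS2 (1.14), CARS2 (0.75) and YARS2 (0.73). Of all genes, 18.6% lay above and 20.9% below the parental change. On day 6 the number was 6, all cytosolic: FARSA (0.56), LARS1 (-0.25), MARS1 (0.37), QARS1 (-0.33), VARS1 (0.55) and WARS1 (0.67), where 5.49% of all genes lay above and 7.14% below. On day 9 it was 13 cytosolic members, with FARSA at 1.67 and both WARS1 and VARS1 at 1.05, and 11 mitochondrial members, with AARS2 at 1.36, YARS2 at 1.01 and SARS2 at 0.94, where 24.4% of all genes lay above and 27.3% below.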

How the results depend on the processing

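The number of cytosolic members called on day 3 was 5, against 8 with library size alone, 8 with DESeq2, 10 with the GC, length and span trend removed and 11 with only the groups compared. The number of mitochondrial members called on day 9 was 13, against 8 with the length and span trend removed and 8 with GC added to it. Between the lines with doxycycline, 4 mitochondrial members were called, against 9 with only the groups compared. The causes were not tested. For the other counts, each of these settings stayed within 1.5 times. Some uncalled values changed sign and were then called. They were FARS2 on day 9 against day 6 (0.47 with length and span, 0.51 with GC added), and the difference from the parental change on day 9 for QARS1 (-0.24 and -0.28) and FARS2 (0.42 and 0.39). Changes of sign among values that stayed uncalled were not counted. Library size alone moved the median of all genes by over 0.1 in the comparisons that subtract day 6 or the parental change from day 9, to -0.15 and -0.14.

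Leaving out 1 library at a time gave counts of cytosolic and mitochondrial members called of 1 to 7 and 1 to 4 on day 3, 11 to 15 and 5 to 8 on day 6, 10 to 13 and 10 to 12 on day 9, and 11 to 14 and 5 to 7 in parental cells. For the change minus the parental change the ranges were 9 to 12 and 6 to 8 on day 3, 4 to 6 and 0 to 1 on day 6 (1 without day 6 replicate 2 of the deleted line), and 12 to 14 and 9 to 12 on day 9.

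With the replicate number as a block, 340 of 350 results of single members kept their side of the threshold, 6 lost a call and 4 gained one. The counts on day 6 were then 15 cytosolic and 7 mitochondrial, and on day 9 they were 11 and 13. At the depth of these libraries no member was near the filter on low counts.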
